A study of Rattus norvegicus with 6 samples.

Results

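Cells carrying transcripts of the cell division programme were counted in every cell type of the rat pancreas with 6 genes, Mki67, Top2a, Cdk1, Ccnb1, Birc5 and Ube2c. They are 6 of the 32883 genes in the files, and were taken by name, with no threshold on their values. A cell was called cycling when at least 3 of the 6 had at least 1 unique molecular identifier (UMI, a tag that counts each captured transcript once). By this rule 1782 of 75201 cells were cycling. The question was how the share of cycling cells differed between the cell types, and between young and aged rats within each of them.

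Single-cell RNA sequencing had been performed on male Wistar rats in 3 groups of 2. The young rats were 2 months old and on a normal diet, the old rats were 20 months old and on a normal diet, and the HFHF-old rats were 20 months old and on a high-fat, high-fructose (HFHF) diet. In all groups the pancreas was digested with collagenase P and islets were enriched on a density gradient, so the cells are those of that preparation and not of whole pancreas. The replicate is the rat; the old and HFHF-old rats jointly are called aged. Age and diet cannot be told apart in the HFHF-old rats when these are compared with the young rats.

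Cells were grouped without the cell cycle genes and named from markers as islet, acinar, ductal, fibroblast, endothelial, macrophage, dendritic, T, NK and B cells, each name meaning a cell like that type. The B class took in B and plasma cells together. Libraries held between 77387928 and 166875258 UMIs, and the median UMIs per cell ran from 2537 in old 2 to 9391.5 in HFHF-old 1. Most macrophages, fibroblasts, NK cells and acinar cells of HFHF-old 1 were in clusters made up almost wholly of that library. Other libraries also filled most of some clusters. Among these were cluster 9 (2478 of 2485 cells from young 2), cluster 24 (all 1126 from old 2) and cluster 0 (6392 of 6872 from HFHF-old 2). HFHF-old 1 had under 10 dendritic and T cells, and HFHF-old 2 under 10 islet, ductal and macrophage cells. Those rats were left out of those classes, and HFHF-old 1 had unnamed clusters whose markers came nearest to the dendritic and T lists. Another 19777 cells had no class name and entered no comparison by class. They were 53.6% of the cells of young 2, against 11.7% (HFHF-old 2) to 38.6% (HFHF-old 1) in the other rats. No more than 69 barcodes were shared by any pair of libraries.

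A dividing cell copies its DNA in S phase and separates the copies in mitosis, and the genes for each step are switched on in turn. Cdk1 is the kinase that starts mitosis, and Ccnb1 encodes cyclin B, its activating partner. Top2a untangles the copied DNA, Mki67 encodes Ki-67, which coats mitotic chromosomes, Birc5 encodes survivin, a subunit of the chromosomal passenger complex, and Ube2c hands ubiquitin to the anaphase-promoting complex, which ends mitosis. In the adult pancreas, endocrine and acinar cells are known to divide rarely, and lymphocytes and some resident macrophages divide within tissues.

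Genes of this late programme are known to share promoter elements. The cell cycle homology region (CHR, TTTGAA) is bound by the DREAM complex in resting cells and by MuvB complexes in dividing cells, and the CCAAT box is bound by NF-Y. The promoters of Mki67, Top2a and Cdk1 from RefSeq on GRCr8 are printed to show these letters in genes of 1 programme. Each runs from 250 bases before the annotated start to 50 after it, with matches of the CHR, its variant TTCGAA and CCAAT on either strand in capitals. Mki67 lies at chr1:199952544-199952843 on the minus strand, Top2a at chr10:84473044-84473343 on the minus strand and Cdk1 at chr20:19265043-19265342 on the plus strand.
Mki67: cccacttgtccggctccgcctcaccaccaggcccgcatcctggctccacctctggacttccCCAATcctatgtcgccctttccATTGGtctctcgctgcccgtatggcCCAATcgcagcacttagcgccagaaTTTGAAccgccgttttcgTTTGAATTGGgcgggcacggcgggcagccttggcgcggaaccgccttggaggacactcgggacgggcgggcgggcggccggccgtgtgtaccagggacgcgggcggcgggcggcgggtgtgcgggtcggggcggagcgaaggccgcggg
Top2a: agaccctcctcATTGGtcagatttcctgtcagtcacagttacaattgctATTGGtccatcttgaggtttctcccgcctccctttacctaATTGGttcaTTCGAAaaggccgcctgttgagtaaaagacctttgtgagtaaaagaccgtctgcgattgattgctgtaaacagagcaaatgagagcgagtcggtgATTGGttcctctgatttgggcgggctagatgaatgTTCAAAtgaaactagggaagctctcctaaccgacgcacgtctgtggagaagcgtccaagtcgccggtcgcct
Cdk1: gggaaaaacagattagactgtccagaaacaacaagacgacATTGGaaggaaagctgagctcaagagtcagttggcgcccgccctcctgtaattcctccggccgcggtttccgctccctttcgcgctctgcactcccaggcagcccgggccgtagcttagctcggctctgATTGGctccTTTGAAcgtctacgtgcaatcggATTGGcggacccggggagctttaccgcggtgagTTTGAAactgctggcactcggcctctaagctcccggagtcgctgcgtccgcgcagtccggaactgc

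Mki67 held the CHR letters 117 and 99 bases before its start, the latter overlapping a CCAAT match on the other strand. Top2a held them on the reverse strand 22 bases before its start, with the variant at 152. Cdk1 held them 72 and 16 bases before its start. Birc5 had a CHR match 8 bases before its start and 1 CCAAT match, while Ccnb1 had CCAAT matches 82 and 50 bases before its start and no CHR match. All 5 promoters printed or described had a CCAAT match. Of 33469 rat promoters of the same length, 18.3% held TTTGAA, 1.69% held TTCGAA and 37.5% held CCAAT on either strand. The E2F letters GGCGGGAA and GGCGCGAA, held by 1.91% and 0.487% of promoters, had no match in these 5. A match describes letters in a window, not a bound site.

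The 6 genes were found together in the same cells. Of all cells, 65706 had none of the 6, 6600 had 1, 1113 had 2, 477 had 3, 375 had 4, 398 had 5 and 532 had all 6. So cells with all 6 outnumbered those with 3, 4 or 5. Among the cycling cells, 96.4% had Mki67, 88.4% Top2a, 79.6% Cdk1, 75.3% Birc5, 67.2% Ube2c and 48.4% Ccnb1. Detection of a single gene was less selective, since 50.7% of the cells with an Mki67 UMI and 43.5% of those with a Ccnb1 UMI had none of the other 5. For Ube2c this share was 28.5%. Cells just inside the rule, with 3 genes, numbered 477, and those just outside it, with 2, numbered 1113.

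By mean share over rats, cycling cells were most frequent among lymphoid and dendritic cells. The lowest means were 0.446% in acinar, 0.568% in endothelial, 0.702% in islet and 0.870% in ductal cells. The ductal mean rests on 1 cell, with a pooled share of 0.223%. Macrophages and fibroblasts had means of 2.30% and 1.15%, with their highest shares in HFHF-old 1 (8.71%) and young 2 (4.48%). In old 2 both were below islet cells, at 2 of 2235 and 0 of 1472 against 12 of 2350. Over all 6 rats, the share was 3.95% of dendritic cells, and in the young rats it exceeded 5% in dendritic, T, NK and B cells. The ductal class held 1 cycling cell of 451, which was 1 of the 23 ductal cells of HFHF-old 1 (4.35%), and none in the other rats. Smooth muscle cells, which were not among the 10 classes, had 4 of 548. Intervals given with a share cover counting error only, not differences between rats. Where a share was 0, the limit given after "up to" is that of 3 cells, not the exact interval, whose upper end is higher (26.5% for 0 of 12). In young 1 and 2 the shares were 7.49% and 7.04% in B cells, 6.41% and 5.42% in T cells, 5.41% and 8.46% in dendritic cells and 5.10% and 7.01% in NK cells. These 4 classes cannot be ordered in the young rats, since their values overlap. They lay above the other 6 classes in both young rats, where the next shares were 0.868% in endothelial cells of young 1 and 4.48% in fibroblasts of young 2.

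**Figure D1:**
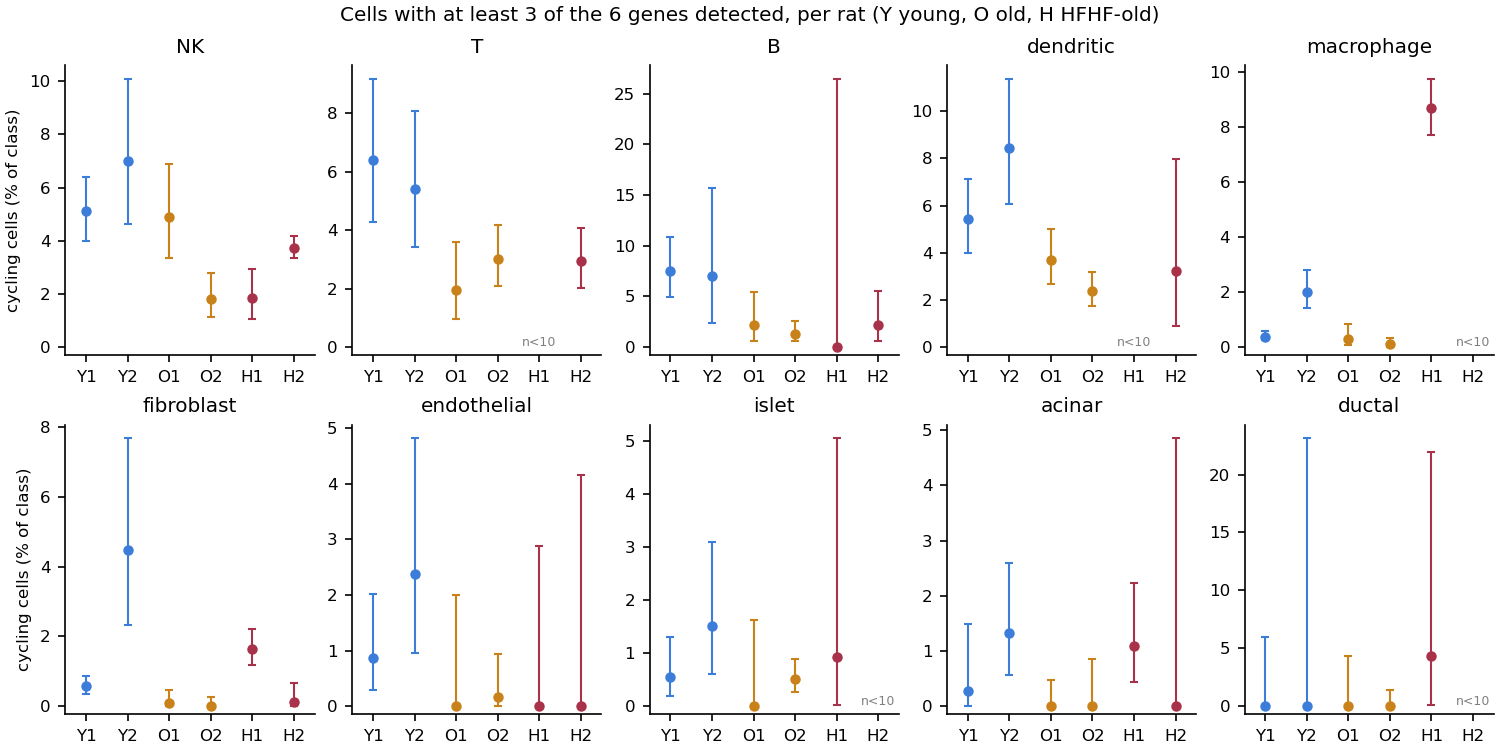
Percent of cells of each class with at least 3 of the 6 genes (y axis, a separate scale for each panel) in each rat (x axis), with bars for 95% exact binomial intervals; classes with under 10 cells in a rat are not shown. In B cells both young rats sit at 7.04% or above and the 4 aged rats at 2.19% or below, while macrophages of HFHF-old 1 sit at 8.71%, above all other rats.

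B cells make antibodies once they mature into plasma cells. In the main clustering, B cells differed most between young and aged rats in percentage points of the mean share. With more principal components, dendritic cells differed more than B cells, as the shares given below for both show. Cycling cells were 25 of 334 (7.49%, 95% exact binomial interval 4.90 to 10.9) in young 1 and 5 of 71 (7.04%, 2.33 to 15.7) in young 2. They were 4 of 186 (2.15%) in old 1, 8 of 611 (1.31%) in old 2, 0 of 12 in HFHF-old 1, which allows a share of up to 25%, and 4 of 183 (2.19%) in HFHF-old 2. All 4 aged rats were below both young rats. The mean share was 1.41 ± 1.02% (SD, n = 4) in aged and 7.26 ± 0.31% (n = 2) in young rats, a difference of -5.85 percentage points. The exact two-sided permutation test over rats gave p = 0.133, the smallest that 4 against 2 allows, and 0.381 after Benjamini-Hochberg adjustment over the 10 classes.

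The makeup of the B class also differed between the rats. With 20 principal components in place of 10, B and plasma cells formed clusters of their own. Of the cells of the B class, 16 of 334 and 1 of 71 in the young rats, 76 of 186 and 242 of 611 in the old rats, 12 of 12 in HFHF-old 1 and 13 of 183 in HFHF-old 2 were then plasma cells. At resolution 2, which also set plasma cells apart, these were 20 and 2 in the young rats, 55 and 205 in the old rats, 0 in HFHF-old 1 and 14 in HFHF-old 2. Both old rats thus held larger shares of plasma cells than both young rats in either clustering, whereas the 12 cells of HFHF-old 1 changed name between them. The clusters with 20 components also took in cells from outside the B class, among them all 123 B cells of HFHF-old 1. With 20 components, cycling cells were 22 of 317 B cells (6.94%) in young 1, 1 of 56 (1.79%) in young 2, 0 of 116 and 0 of 212 in the old rats, 0 of 123 in HFHF-old 1 and 3 of 147 (2.04%) in HFHF-old 2, so the groups overlapped. Of the plasma cells, 1 of 22 and 0 of 1 were cycling in the young rats, 4 of 84 (4.76%) and 9 of 459 (1.96%) in the old rats, and 0 of 12 and 1 of 15 in the HFHF-old rats. At resolution 2 the cycling shares of B cells were 9.07% and 5.97% in the young rats and 0.699% to 1.52% in the 4 aged rats. How far the makeup of the class enters its difference between young and aged rats was not tested beyond these values.

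By level, 4 of the 6 genes of B cells separated the aged from the young rats, and none was called. Mki67 stood at 163 and 101 CPM, the UMIs of a gene scaled to counts per 1000000 UMIs of the class, in the young rats, at 29.0 and 18.1 CPM in the old rats and at 8.81 and 43.2 CPM in the HFHF-old rats. Top2a stood at 244 and 78.1, 13.7 and 10.2, and 8.81 and 35.7 CPM in the same order. For both genes every aged rat was below both young rats. This held for 4 of the 6 genes (Cdk1, Mki67, Top2a and Ube2c), against 26.2% of the 9965 genes tested in B cells. Birc5 overlapped, at 65.6 and 8.23 CPM in the young rats and 11.8 CPM in old 1, and so did Ccnb1, with young 2 and old 1 at almost the same level of 13.7 CPM. The fitted log2 difference of aged minus young was -2.69 ± 0.46 (SE) for Top2a and -1.81 ± 0.37 for Mki67, with edgeR adjusted p of 0.587 and 0.593 over all genes tested.

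T cells, named from Cd3 genes, had cycling shares of 6.41% (27 of 421) and 5.42% (22 of 406) in the young rats. The shares were 1.96% (10 of 509) and 3.00% (34 of 1134) in the old rats and 2.93% (33 of 1126) in HFHF-old 2. The 3 aged rats were below both young rats, with means of 2.63 ± 0.58% (SD, n = 3) and 5.92 ± 0.70% (n = 2). The exact permutation test gave p = 0.2, the smallest that 3 against 2 allows. Mki67 was at 161 and 200 CPM in young, 54.0 and 96.5 in old and 131 CPM in HFHF-old 2. Mki67, Top2a and Ccnb1 were below both young rats in all 3 aged rats, that is 3 of 6 genes, against 20.5% of genes tested in T cells. Cdk1, at 18.5 and 20.2 CPM in young rats, was at 9.80, 25.2 and 13.4 CPM in the aged rats, so its groups overlapped. Most T cells of HFHF-old 2 were in cluster 22 (1003 cells), whereas those of the other rats were mainly in cluster 10. Within cluster 10 the shares were 5.45% and 5.42% in young, 1.99% and 2.54% in old and 0% of 123 cells in HFHF-old 2. In cluster 22 the shares were 7.93% (13 of 164) in young 1, 9.59% (7 of 73) in old 2 and 3.29% (33 of 1003) in HFHF-old 2, so old 2 lay above young 1 there. Cluster 32, with 542 of its 547 cells from HFHF-old 1, had 10 of the 12 T markers raised but was led by Fabp1 and Apoa1 and stayed unnamed, and 2.95% (16) of those 542 cells were cycling.

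NK cells, which kill infected or transformed cells, showed a smaller gap. Cycling cells made up 5.10% (70 of 1373) and 7.01% (26 of 371) in the young rats, 4.89% (31 of 634) and 1.82% (21 of 1153) in the old rats, and 1.82% (16 of 878) and 3.74% (295 of 7888) in the HFHF-old rats. The aged rats lay below both young rats, but old 1 differed from young 1 by less than counting error, with exact intervals of 3.35 to 6.87% and 4.00 to 6.40%. The means were 3.07 ± 1.51% (SD, n = 4) and 6.05 ± 1.35% (n = 2), and the exact permutation test gave p = 0.133 (adjusted 0.381). Most NK cells of HFHF-old 1 were in cluster 25, with 871 of its 879 cells from that rat, and most of those of HFHF-old 2 in cluster 0, which also held 289 cells of young 1 and 189 of old 2. In cluster 7, with NK cells of the other 5 rats, the shares were 3.93% and 7.01% in young, 4.76% and 1.33% in old and 3.68% in HFHF-old 2, so the groups overlapped there. In cluster 0 young 1 had 7.61%, old 2 had 4.23% and HFHF-old 2 had 3.55%, and in cluster 21 the shares were 7.23% (12 of 166), 1.67% (1 of 60) and 4.85% (54 of 1113) in the same order. Young 1 was above both aged rats in these clusters, which held no cell of young 2.

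Mki67 in NK cells stood at 132 and 198 CPM in young, 117 and 38.1 in old and 93.0 and 103 CPM in HFHF-old rats. The same order of groups held for Ccnb1, Cdk1 and Top2a, so 4 of 6 genes had every aged rat below both young rats, against 8.66% of the 11546 genes tested in NK cells. Birc5 did not follow it, at 16.8 and 29.5 CPM in young and 30.4 CPM in old 1. The largest fitted difference was that of Ccnb1, -1.01 ± 0.26 (SE) on the log2 scale with an edgeR adjusted p of 0.494.

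Dendritic cells, which present antigen to T cells, formed 1 cluster with class II genes and Flt3 among its leading genes and 8 of 11 dendritic markers raised, although a single cell had a median of only 2 of the 11 (3 in cycling cells). Cycling cells were 5.41% (47 of 868) and 8.46% (39 of 461) in the young rats, 3.70% (41 of 1109) and 2.37% (44 of 1856) in the old rats and 3.20% (4 of 125) in HFHF-old 2. The 3 aged rats were below both young rats, with means of 3.09 ± 0.67% (SD, n = 3) and 6.94 ± 2.15% (n = 2; exact permutation p = 0.2). With 20 principal components the shares were 5.18% and 17.4% in young and 1.46% to 3.15% in the 4 aged rats. At resolution 2 only 846 cells had the dendritic name, so most of these cells lost it. Among the 846, old 1, at 8.14% (7 of 86), lay above young 1, at 5.70% (9 of 158), with 8 cells in young 2. Cluster 18, nearly all from HFHF-old 1, had 6 of the 11 dendritic markers raised but stayed unnamed, and 7.46% (109 of 1462) of the cells of that rat in it were cycling, above young 1. By level, this was the only class in which all 6 genes were lower in every aged rat than in both young rats, against 16.2% of the 12731 genes tested in it. Top2a stood at 95.4 and 188 CPM in young, 54.6 and 43.2 in old and 29.2 CPM in HFHF-old 2. Ube2c stood at 31.4 and 88.8, 20.0 and 22.7, and 2.78 CPM. The fitted log2 differences were -1.85 ± 0.35 (SE) for Top2a and -2.89 ± 0.58 for Ube2c, with edgeR adjusted p of 0.300 and 0.321.

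Macrophages, the tissue phagocytes, had few cycling cells in 4 of the 5 rats with enough cells. The shares were 0.374% (22 of 5883) in young 1, 2.02% (34 of 1687) in young 2, 0.291% (3 of 1032) in old 1 and 0.0895% (2 of 2235) in old 2. In HFHF-old 1 the share was 8.71% (264 of 3030; 95% exact interval 7.73 to 9.77), above every other rat and every other class of that rat. Of these 3030 cells, 2988 were in cluster 8, which held only 8 cells of other rats. It was led by Gpnmb, Oasl, Lyve1, Ctsb, Asgr2 and Cd163. A cluster of nearly 1 library may be that library rather than a cell type, and HFHF-old 2 had 6 macrophages, so the diet and this rat cannot be told apart.

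The 6 genes were all high in HFHF-old 1 macrophages. Mki67 stood at 14.9 and 104 CPM in young, 9.77 and 3.82 in old and 190 CPM in HFHF-old 1. Top2a stood at 7.20 and 52.4, 3.35 and 4.35, and 103 CPM. Cdk1 stood at 5.23 and 15.5, 2.54 and 1.39, and 24.9 CPM. The difference of HFHF-old minus old was 4.67 ± 1.08 (SE) for Mki67 and 3.53 ± 0.68 for Cdk1 on the log2 scale, with edgeR adjusted p of 0.215 and 0.198. With cells thinned to 2000 UMIs each, the share in HFHF-old 1 was 3.56% (104 of 2922), against 0.0776% to 1.60% in the other 4 rats. These values rest on 1 rat. Without it, the aged minus young difference in the macrophage share went from 1.84 to -1.005 percentage points. The aged mean of 3.03 ± 4.92% (SD, n = 3) against 1.19 ± 1.16% in young (n = 2) gave an exact permutation p of 1. The fitted difference of summed UMIs had the other sign, with a median over the 6 genes of -0.54. The fit compares rats on a log scale and the share on a linear one.

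**Figure D2:**
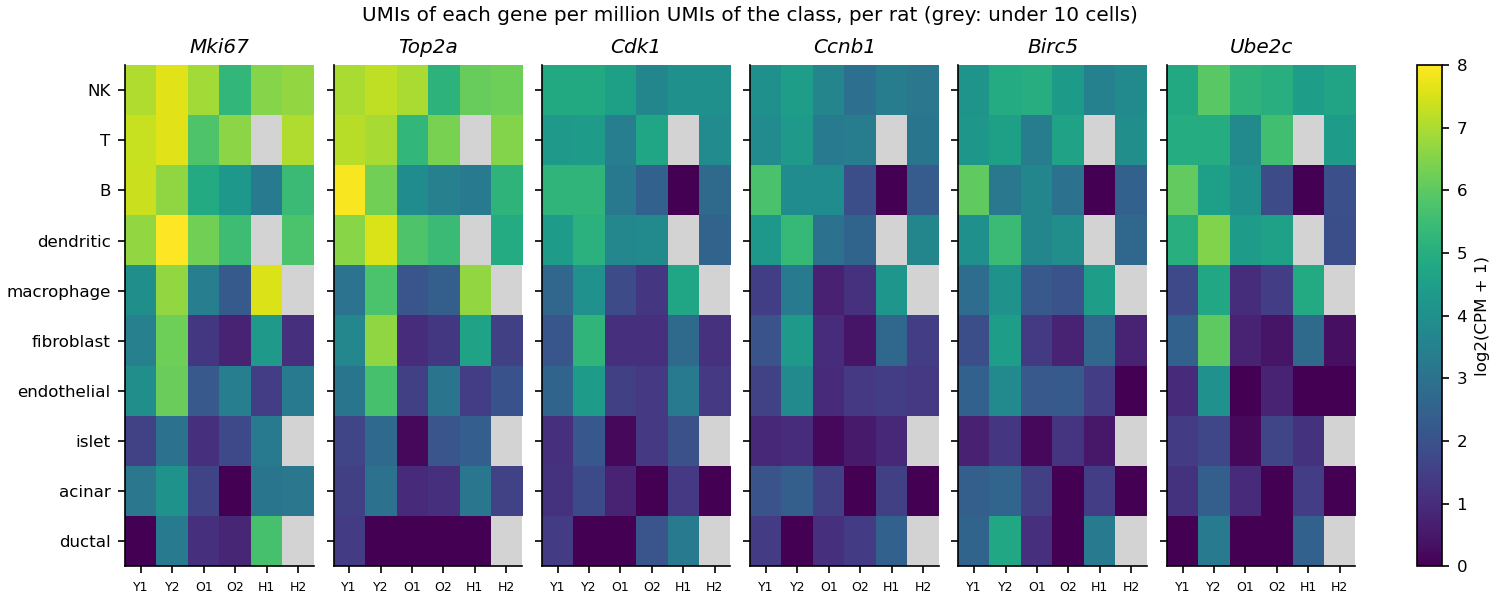
Level of each gene, one panel per gene, as log2(CPM + 1) (colour), in each class (rows) and rat (columns); grey cells mark rats with under 10 cells of the class. The lymphoid and dendritic rows are bright in both young rats, and the macrophage row is brightest in HFHF-old 1, where Mki67 reached 190 CPM.

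Fibroblasts, the matrix-forming cells, differed between the young rats themselves. Cycling cells were 0.570% (21 of 3682) in young 1 and 4.48% (12 of 268) in young 2. They were 0.0808% (1 of 1238) in old 1, 0 of 1472 in old 2, which allows a share of up to 0.204%, 1.63% (41 of 2523) in HFHF-old 1 and 0.119% (1 of 843) in HFHF-old 2. Only HFHF-old 1 among the aged rats was above young 1. The means of 0.456 ± 0.781% (SD, n = 4) in aged and 2.52 ± 2.76% (n = 2) in young rats gave an exact permutation p of 0.267. Fibroblasts of HFHF-old 1 were mainly in clusters 13 and 30, with 1943 and 548 cells, of which other rats held few. In cluster 2, with 5690 cells and led by genes including Pi16 and Clec3b, 18 of 3248 cells of young 1 and 11 of 185 of young 2 were cycling, against 0 of 662 and 0 of 890 in the old rats and 0 of 24 and 1 of 681 in the HFHF-old rats.

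By level, Mki67 in fibroblasts was at 10.2 and 74.8 CPM in young, 1.47 and 0.742 in old, and 19.3 and 1.10 CPM in HFHF-old rats. None of the 6 genes had every aged rat below both young rats, against 8.85% of genes tested in fibroblasts, because HFHF-old 1 lay above young 1 in each. The fitted differences of aged minus young ran from -4.47 (Ube2c) to -2.48 (Birc5) on the log2 scale, with edgeR adjusted p of 0.296 to 0.494. Their median of -3.31 went to -1.20 without young 2. Those of HFHF-old minus old ran from 1.46 to 3.50 and turned to a median of -0.05 without HFHF-old 1.

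Endothelial cells, which line vessels, had 5 cycling cells of 576 (0.868%) in young 1 and 7 of 295 (2.37%) in young 2. In the aged rats there was 1 of 594 (0.168%) in old 2 and none of 183, 126 and 87 cells in old 1, HFHF-old 1 and HFHF-old 2, which allow shares of up to 1.64%, 2.38% and 3.45%. The means were 0.0421 ± 0.0842% (SD, n = 4) and 1.62 ± 1.06% (n = 2; exact permutation p = 0.133, adjusted 0.381). The zeros of the smaller libraries do not set them apart from young 1 at this depth. Only Mki67 and Cdk1 had enough counts to be tested. Mki67 was lower in every aged rat than in both young rats, at 14.5 and 71.0 CPM in young and 1.71 to 9.79 CPM in aged rats, 1 of 2 genes against 7.01% of genes tested in endothelial cells.

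Islet cells, the hormone-producing cells, had few cycling cells in every rat. There were 5 of 897 (0.557%) and 7 of 462 (1.52%) in the young rats, 0 of 226 in old 1, 12 of 2350 (0.511%) in old 2 and 1 of 108 (0.926%) in HFHF-old 1. The groups overlapped (exact permutation p = 0.4). Split by their most abundant hormone transcript, cycling cells were 3 of 163 and 3 of 96 beta cells in the young rats, 0 of 73 and 1 of 992 in the old rats and 1 of 25 (4%) in HFHF-old 1. They were 2 of 567 and 3 of 225 alpha cells in the young rats, 0 of 107 and 4 of 748 in the old rats and 0 of 28 in HFHF-old 1. Of the PP cells, 0 of 143 and 1 of 134 were cycling in the young rats, 0 of 40 and 7 of 602 in the old rats and 0 of 51 in HFHF-old 1. No delta cell was cycling, but there were only 24 and 7 in the young rats, 6 and 8 in the old rats and 4 in HFHF-old 1. Cluster 5 came nearest to the islet list but stayed unnamed for its few UMIs. Its cycling cells were 1 of 126 and 35 of 2424 in the young rats and 1 of 510 and 0 of 406 in the old rats. Cluster 37, led by genes including Slc2a2, Pcsk1 and Gad2, also had no name, with 0 of 183 cells of HFHF-old 1 cycling.

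Most cycling cells of the islet class also held a leucocyte transcript. Ptprc, which encodes the pan-leucocyte protein CD45, had a UMI in 16 of the 25 cycling islet cells (64%) against 22.3% of the other islet cells, and 44% against 17.3% were called doublets. In old 2, 10 of the 12 cycling islet cells had a Ptprc UMI and 5 were called doublets. With all cells holding Ptprc left out, cycling cells were 3 of 714, 4 of 384, 0 of 172, 2 of 1796 and 0 of 63 in the 5 rats. Cycling islet cells were deeper, with a median of 24706 against 9180.5 UMIs, though 2569.5 against 2335.5 in old 2. Detection of Ptprc depends on depth. Leucocyte RNA, doublet calls and depth thus moved with the cycling call in this class, and their part in it beyond these counts was not tested. Cycling islet cells had a median of 12 of the 15 islet markers detected, against 11 in the others. Detection of these markers depends on depth too, so this count cannot tell islet cells from doublets that hold an islet cell.

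Acinar cells, which make digestive enzymes, had 1 of 373 (0.268%) and 8 of 605 (1.32%) cycling cells in the young rats, 0 of 769 and 0 of 433 in the old rats, and 7 of 644 (1.09%) and 0 of 74 in the HFHF-old rats. Outside the class, cluster 12 came nearest to the acinar list but stayed unnamed for its few UMIs. In it, 24 of 1875 cells of HFHF-old 1 were cycling. Cluster 9, with acinar and islet markers, was also unnamed, with 72 of 2478 cells of young 2 cycling. Of the 16 cycling acinar cells, 62.5% had Ptprc, against 22.6% of the others, and 37.5% against 9.20% were called doublets. Without cells holding Ptprc, all 7 of HFHF-old 1 were gone, and 1 and 5 were left in the young rats. Of the 13 cycling endothelial cells, 53.8% had Ptprc against 19.5% of the others, and 2 and 4 were left in the young rats and none in the aged rats. Among fibroblasts the shares with Ptprc were closer, 19.7% and 13.3%, and 38 of the 41 cycling fibroblasts of HFHF-old 1 were left. The 1 cycling ductal cell, of HFHF-old 1, also held Ptprc. Cycling cells were deeper, with median UMIs of 16640 against 4400 in acinar, 15568 against 3044 in endothelial and 21047 against 8139 in fibroblast cells. How far depth enters the shares with Ptprc was not tested.

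**Figure D3:**
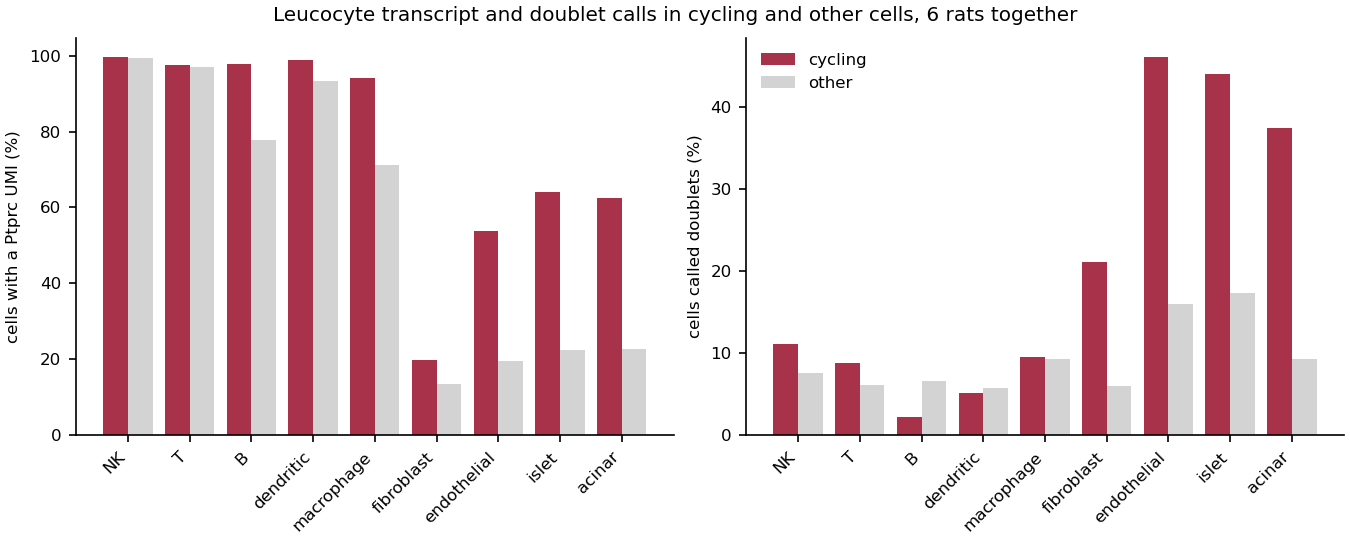
Percent of cells with a UMI of Ptprc and percent called doublets (y axes) in cycling and other cells of 9 classes (x axis), with the 6 rats together and no error bars. Cycling cells were deeper than the others, and detection of Ptprc depends on depth. Cycling islet and acinar cells had Ptprc in 64% and 62.5%, against 22.3% and 22.6% of the other cells, whereas in T, NK and dendritic cells both bars are near the top.

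The cycling cells of each rat came from different classes. Cells of no named class were 26.9% and 49.1% of them in young, 17.4% and 22.6% in old and 38.2% and 5.34% in HFHF-old rats. Macrophages were 49.4% of the cycling cells of HFHF-old 1 and 25.3% of all its cells, NK cells 82.9% and 67.3% in HFHF-old 2, and dendritic cells 37.6% of the cycling cells of old 1, where they were 1109 of 7381 cells. Over all cells, the cycling share was 1.77% and 3.07% in young, 1.48% and 0.970% in old and 4.45% and 3.04% in HFHF-old rats. The aged and young means over all cells, 2.48 ± 1.58% (SD, n = 4) and 2.42 ± 0.92% (n = 2), differed by less than their spread (exact permutation p = 0.933). Within classes, the mean was lower in aged rats in 8 of 10 classes, and every aged rat was below both young rats in 5 of 10, namely endothelial, dendritic, T, NK and B cells. With clusters cut at resolution 2 this count was 3, and without HFHF-old 1 it was 9. Both old rats were below both young rats in 9 of 10 classes, all but the ductal cells. For 2 rats against 2 the smallest exact permutation p is 0.333. In islet cells old 2 had 12 of 2350 cycling and young 1 had 5 of 897, nearly the same share. Old 2 was the shallowest library, with a median of 2537 UMIs. With cells thinned as described below, the islet cycling cells left were all from old 2, so the islet order did not hold. In acinar cells the order rests on 1 cycling cell of 373 in young 1. The classes share the same rats and libraries, so these counts over classes are not separate results. None of the differences by class passed the adjustment over classes, and with these group sizes none could reach 0.05.

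**Figure D4:**
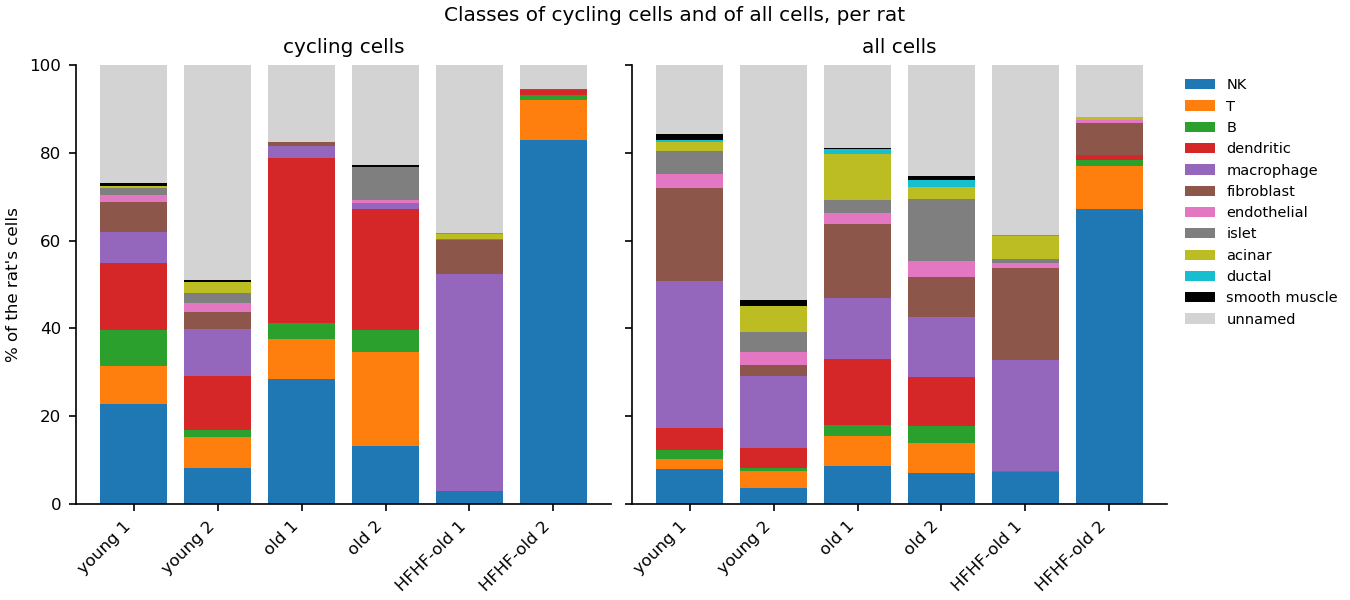
Classes of the cycling cells (left) and of all cells (right) as percent of each rat's cells (y axis), stacked per rat (x axis). NK cells fill 82.9% of the cycling cells of HFHF-old 2 and macrophages 49.4% of those of HFHF-old 1.

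Detection depends on depth, and cycling cells were deeper than the rest. Their median UMIs in the 6 rats ran from 9308 in old 2 to 20458.5 in HFHF-old 1, against 2513 to 9100 in the other cells. Thinned to 2000 UMIs per cell, with shallower cells left out, the same 5 classes of 10 had every aged rat below both young rats. The thinned shares were 7.09% and 3.17% in young B cells and 0% to 1.89% in aged ones, and 2.90% and 3.11% in young T cells and 1.04% to 2.14% in aged ones. In NK cells they were 3.03% and 4.88% against 1.05% to 2.91%. In islet cells the 4 cycling cells left were all from old 2. The median depth over all cells was 4299 and 5302 UMIs in the young rats, 7739 and 2537 in the old rats and 9391.5 and 8599 in the HFHF-old rats.

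Summed over the cells of a class and fitted with edgeR, the 6 genes gave 47 tests in 9 classes, and none in ductal cells. Levels of the 6 genes ran together, so these tests are not separate. In classes with all 6 rats, an unadjusted edgeR p under 0.05 for aged minus young was reached by 165 of 8494 genes (acinar) to 939 of 11546 (NK). The shares were larger in dendritic, T and macrophage cells. For aged minus young, all 47 log2 differences were below 0, and 25 had an unadjusted p under 0.05, but none was called at an edgeR adjusted p under 0.05 and a change of over 1.5 times, where edgeR called 0.2% of the 114109 gene tests over the 10 classes. DESeq2 called 4, namely Mki67, Top2a and Ube2c in dendritic cells and Top2a in B cells, against 1.57% of the same tests, 0.731% in dendritic and 0.371% in B cells. The lowest edgeR adjusted p was 0.224, for Ccnb1 in T cells. Without HFHF-old 1, Mki67 was called in fibroblasts (log2 -5.12, edgeR adjusted p = 0.0490), where 0.952% of genes were. Without HFHF-old 2 it was called in B cells (log2 -2.33, edgeR adjusted p = 0.0472), where 2.43% were and where HFHF-old 1, with 12 cells, was the only HFHF-old rat. The medians over the 6 genes were -3.31 in fibroblasts, -2.30 in B, -1.71 in dendritic, -0.83 in NK, -0.69 in islet, and -0.54 in T cells and in macrophages. Without young 2 the medians turned to 0.72 in islet cells and 1.21 in macrophages and were -1.20 in fibroblasts and -1.11 in dendritic cells. In B cells the median was -5.09 without HFHF-old 2, in T cells -0.27 without old 1 and -0.90 without old 2, in macrophages -1.30 without young 1 and -2.66 without HFHF-old 1, and in islet cells -1.26 without young 1, -0.27 without old 1 and -2.29 without old 2. In sums, fewer cycling cells and less RNA per cycling cell cannot be told apart. The shares above count cells, but a cell had to hold UMIs of at least 3 of the 6 genes, so less RNA per cell can lower them too.

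For HFHF-old minus old, 21 of the 47 differences were below 0 and 26 above. None was called by edgeR, which called 0.0245% of all tests, and 13 had an unadjusted p under 0.05. Of all genes tested, that unadjusted edgeR p was reached by 395 of 10164 in endothelial cells up to 1537 of 11546 in NK cells. DESeq2 called 3, Ccnb1, Birc5 and Cdk1 in macrophages, against 0.85% of all tests and 2.74% in macrophages. The 6 genes were higher in macrophages (median 4.19) and fibroblasts (2.46), both carried by HFHF-old 1. When either young rat was left out of the fit, all 6 genes were called in macrophages, with edgeR adjusted p of at most 0.0239, where 1.11% (without young 1) and 1.63% (without young 2) of genes were. Those fits had 1 HFHF-old and 1 young rat, so the spread came from the 2 old rats alone and HFHF-old 1 was assumed to vary like them. In acinar cells the median over the 3 genes tested was 2.22, where all cycling cells of HFHF-old 1 held Ptprc. The medians were -0.26 in NK cells, -0.35 in T cells, -1.18 in dendritic cells, where HFHF-old 2 with 125 cells was the only HFHF-old rat, and -1.34 in B cells, where HFHF-old 1 had 12 cells. In islet cells the median was 0.11. The share of cycling cells differed between HFHF-old and old rats by -0.574 percentage points in NK cells (exact permutation p = 1) and by -0.637 in B cells (p = 1, exact permutation), less than the spread between rats of 1 group.

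**Figure D5:**
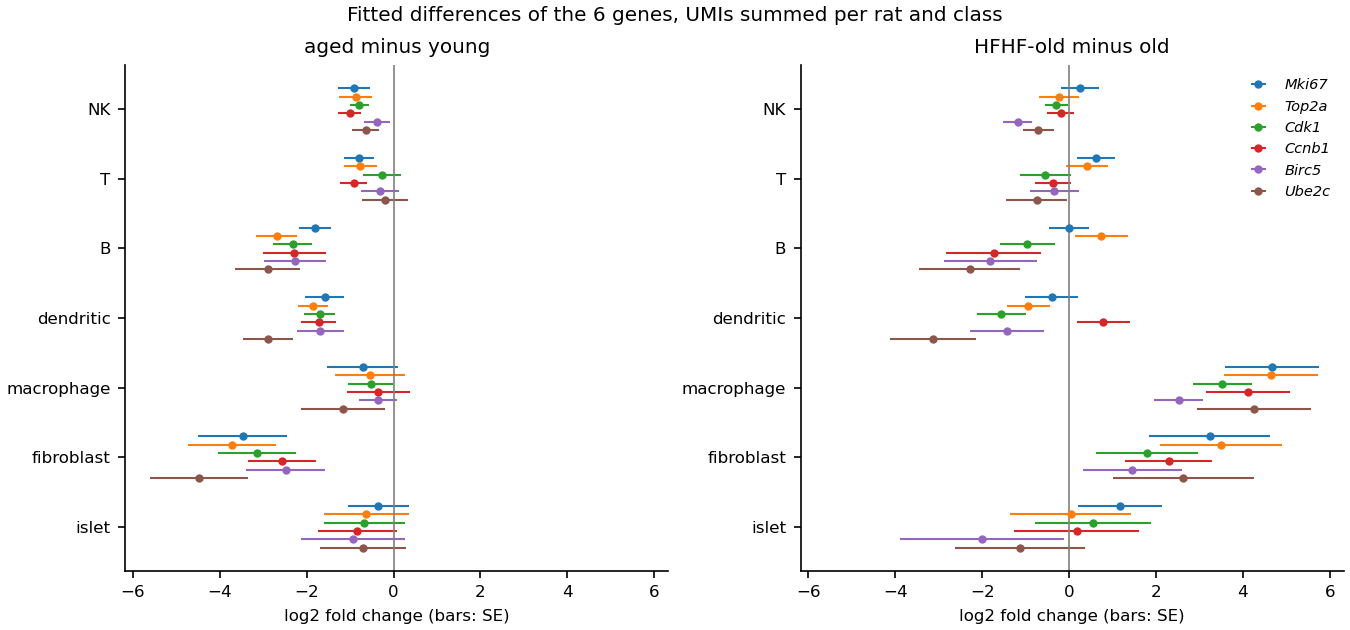
Fitted log2 fold change of each gene with its SE (x axis) for aged minus young (left) and HFHF-old minus old (right). The classes (y axis) are NK, T, B, dendritic, macrophage, fibroblast and islet cells, in which all 6 genes were tested. Acinar and endothelial cells are not drawn. All points on the left lie below 0, and on the right the macrophage points lie between 2.53 and 4.67.

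Other cell cycle genes were compared in 4 lists. In the 23 combinations of class and rat with at least 10 cycling cells, the G2/M and mitosis genes, of which 91 were in the files and none was a member, were 11.9 to 47.9 times higher in CPM in cycling than in other cells. The DNA replication and S phase genes were 3.16 to 12.8 times higher. Lists of G1 cyclins and kinases (0.639 to 2.82 times) and of brakes such as Cdk inhibitors and pocket proteins (0.581 to 2.07 times) were higher in 15 and 8 of the 23. Among the most abundant genes of each list, Smc4, a condensin subunit, was at 456 CPM in cycling and 53.3 in other cells, and Tubb4b, a tubulin, at 266 and 33.5 CPM. Dek, a chromatin protein, was at 643 and 130 CPM, Tmpo, a nuclear envelope protein, at 355 and 77.8, and Atad2, a chromatin ATPase, at 324 and 57.4. Ube2s, which extends ubiquitin chains for the anaphase-promoting complex, was 3.45 times higher. Cdk6 and Ccnd1 differed little (1.34 and 1.08 times), and Ccnd2 was at 0.616 times its level in other cells. The anti-proliferative genes Btg1 and Btg2 were at 0.699 and 0.716 times, and Rb1 at 1.23 times. Unlike the list ranges, these single-gene values, from Smc4 to Rb1, pool the cells of all classes and rats. Differences in class and rat between cycling and other cells were therefore not separated from cycling in them.

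The G2/M list had medians below 0 in aged rats in 10 of 10 classes, which share the same rats, and the S phase list in 9. In ductal cells the G2/M median was only -0.071, with 53.3% of the list lower against 52.5% of all genes tested. In dendritic cells all 90 G2/M genes tested were lower in aged rats, with a median log2 difference of -1.38, where 54.4% of all genes tested were lower. In NK cells 2 of 88 G2/M genes and 0 of 79 S phase genes were higher, with medians of -0.66 for both lists, where 49.5% of all genes tested were lower. The G2/M medians were -1.73 in B cells, -2.42 in fibroblasts, -0.76 in islet and -0.54 in T cells, but -0.11 in macrophages. The S phase medians were -0.80 in B, -0.62 in dendritic and -0.58 in T cells, and nearer to 0 in islet (-0.38), acinar (-0.36), fibroblast (-0.17), endothelial (-0.15) and macrophage (-0.035) cells. In ductal cells the S phase median was 0.19. The median of the brakes list stayed between -0.06 and 0.24 in all 10 classes. For HFHF-old minus old, all 88 G2/M genes and 76 of 77 S phase genes were higher in macrophages, with medians of 3.17 and 1.25, where 50.6% of all genes tested were lower. The HFHF-old macrophages in that comparison were those of HFHF-old 1 alone, nearly all in the cluster of that library.

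In T cells 1 of 78 S phase genes and 1 of 87 G2/M genes tested passed the test, close to the 1.68% called of all 11409 genes tested there. Tk1, the thymidine kinase of S phase, fell in aged T cells, from 33.4 and 22.5 CPM in young to 2.01 and 3.15 in old rats and 8.33 CPM in HFHF-old 2 (log2 difference -2.51 ± 0.34 SE, edgeR adjusted p = 0.0287). Cdc25c, the phosphatase that activates Cdk1, fell from 40.7 and 44.3 CPM to 15.8, 14.6 and 17.5 CPM (-1.32 ± 0.22 SE, edgeR adjusted p = 0.0490). Without old 1 the log2 differences were -2.33 for Tk1 and -1.32 for Cdc25c, and without old 2 -2.72 and -1.32, but neither gene was then called. Cdc25c was also not called without young 2 (-1.21) or with the cells in the top 1% of gene number kept (-1.24). In ductal cells Cenpf, a kinetochore gene, had 24 UMIs in the 23 cells of HFHF-old 1 (110 CPM), 1 of which was the cycling cell, and 0 in both old rats. Set against the 3 UMIs over both old rats that a count of 0 allows, its level in HFHF-old 1 was 76.8-fold. This ratio leaves out the counting error of the 24 UMIs, so it is not a lower bound. The edgeR adjusted p for HFHF-old minus old was 0.0426, where 0.174% of genes were called, but this arm was that 1 rat, assumed to vary like the other groups. The fitted log2 difference was 8.82 without old 1, 8.60 without old 2 and 9.25 with DESeq2, but Cenpf was called in none of these. With the top 1% of cells by gene number kept, most of which were of HFHF-old 1, the fitted log2 difference was 5.39 rather than 9.01, with an edgeR adjusted p of 0.0706, so this value is a description of 1 library.

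Over the 52 combinations of class and rat with at least 50 cells, the levels of the 6 genes ran together. Pearson's r between log2(CPM + 1) of any 2 of them was 0.877 (Mki67 and Birc5) to 0.965 (Mki67 and Top2a). The genes most like their mean were the uncharacterised AABR07000658.1 (r = 0.969), Cenpw (0.966), Sgo2 (0.965), Tpx2 (0.961), Cenpf (0.959), Aspm (0.959), Cdkn3 (0.957), Kif4a (0.954), Aurkb (0.950) and Nuf2 (0.949). Of these 10, 9 were in the G2/M list. Combinations from 1 rat share its library and depth, so these values only describe likeness.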

How the data were processed

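Single-cell RNA sequencing data of pancreas from 6 male rats, 2 per group, were used. The deposited values are whole-number counts of UMIs per gene and barcode, which the authors made with Cell Ranger (file header version 5.0.0; build Rnor_6.0 per the submitters' processing notes) as filtered matrices of a 10x Genomics 3′ library. The files pair Ensembl identifiers with symbols and give no coordinates.

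Barcodes with fewer than 200 genes, over 25% mitochondrial UMIs or in the top 1% of gene number were left out after the limits in the study's methods. The top 1% was taken here over all barcodes, which those methods do not specify, and 2823 of 78024 barcodes were removed, more than the study removed. The top 1% fell mostly on HFHF-old 1. Counts were scaled to 10000 per cell and log-transformed. On 2000 variable genes without the cell cycle genes, 10 principal components and 15 neighbours gave 39 leidenalg 0.10.2 clusters at resolution 1, with no batch correction. A cluster was named from listed markers when 3 or more of these, making up 50% of the list or more, reached a log2 fold of 1, unless it had few UMIs, leading genes of another class or markers of a second class. These naming rules were refined after first clusters had been seen. The members, gene lists and comparisons were chosen with earlier results of these data known. Doublets were scored against simulated ones and kept in the main analysis. Mature neutrophils were to serve as a class without division, but no such class formed.

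Shares were compared over rats with at least 10 cells of the class by exact two-sided permutation tests, adjusted over classes. UMIs summed per rat and class were tested with edgeR 4.0.16 (TMM, filterByExpr, quasi-likelihood, R 4.3.3) in 1 fit over the 3 groups. Calls needed a Benjamini-Hochberg adjusted p under 0.05, taken over every gene tested in that class, together with a change of over 1.5 times either way, as in the study's methods. Standard errors were derived from the fitted change and its F statistic (size over root F). On simulated data of the NK class (11546 genes), 35% of genes changed by a log2 of 1 and 97% of those changed by 2 were recovered, with 12 unchanged genes called. In the B class (9965 genes), 5% and 54% were, with 2 unchanged genes called. DESeq2 1.42.0, other filters, clusterings and thresholds, and each rat left out were the alternatives. Levels of all 6 members were computed in every class, and values were printed for some of them. Also named were the genes called in the other lists and the 3 most abundant of each. The 10 genes most like the members were taken among those with a mean of at least 5 CPM. The E2F letters and other motifs were searched in RefSeq promoters. Of the members, 5 had a promoter sequence, and Ube2c had none.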

Additional observations from a re-analysis of the deposited data

Results flagged for a closer look

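Within the aged rats, 3 shares of cycling cells stood apart from the other 3 rats by more than Dixon's 95% critical value for 4 samples, which chance exceeds in about 1 of 20 groups of continuous values. That rate does not hold for the acinar and endothelial shares, since with the other 3 rats tied at 0 a single cycling cell is enough to exceed the value. The acinar share of HFHF-old 1 was 1.09%, with 0% in the other 3 aged rats. The fibroblast share of HFHF-old 1 was 1.63%, against 0% to 0.119%. The endothelial share of old 2 was 0.168%, a single cell, against 0% in the others.

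Cells of no named class, which enter none of the comparisons by class, held cycling cells in every rat. Their share was 4.41% in HFHF-old 1, against 3.04% and 2.81% in the young rats, 1.36% and 0.869% in the old rats and 1.38% in HFHF-old 2. In HFHF-old 1 many of them were in cluster 18 (109 of 1462 cells cycling), led by Slpi, Zc3h12c and Alcam, and in cluster 20 (43 of 341). The causes of these 4 values were not tested.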

How the results depend on the processing

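The number of classes in which every aged rat was below both young rats, 5 of 10, ran from 3 (resolution 2) to 9 (without HFHF-old 1). Of 165 recomputed aged minus young differences in share, 157 kept the sign of the main difference, and of those for HFHF-old minus old 129 of 160 did. These counts concern the sign alone, not the size.

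For aged minus young shares, in percentage points, the islet difference turned to 0.108 when thinned. The ductal one was -2.96 with at least 2 members, 0 when thinned, -1.83 with 20 principal components and 0 with cells holding Ptprc left out, an alternative added after seeing the data. Leaving out 1 rat at a time gave -1.05 to 0.00364 (acinar), 0 to 2.17 (ductal) and -1.005 to 3.31 (macrophage). Without young 2 the fibroblast, endothelial and dendritic differences kept their sign but shrank. In fibroblasts the aged mean of 0.456% then stood against 21 of 3682 cells in young 1.

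For HFHF-old minus old shares, islet cells gave -0.191 with at least 4 members, -0.162 thinned, -0.189 without doublets and -0.0557 without Ptprc, and acinar and ductal cells 0 without Ptprc (ductal cells also when thinned). Endothelial cells gave 0 with at least 4 members, thinned and without Ptprc, 1.58 with the top 1% kept, 1.58 at resolution 2 and 0.477 with cell cycle genes used in clustering. Dendritic cells gave -0.0395 with at least 4 members, -0.724 thinned, -0.500 without doublets, -1.40 at resolution 2, -0.800 with 20 components and -1.56 with cell cycle genes used. T cells gave -0.415 thinned, -0.594 with 20 components and -0.850 with cell cycle genes used, and B cells 0.809 thinned and 1.02 with 20 components. With 1 rat left out at a time the ranges were 0 to 1.09 (acinar), -0.168 to 0 (endothelial), -0.497 to 0.829 (dendritic), -0.0675 to 0.966 (T), -2.11 to 0.960 (NK) and -1.73 to 0.456 (B).

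Of all genes, 228 were called for aged minus young and 28 for HFHF-old minus old. DESeq2 called 1787 and 970, edgeR without a filter on low counts 5434 and 4411, with the top 1% kept 138 and 12, without doublets 361 and 45, and with 1 rat left out 162 to 673 and 95 to 530. Members called numbered 0 and 0, with DESeq2 4 and 3, with no filter 24 and 14, with the top 1% kept 1 and 0, and with 1 rat left out 0 to 1 (1 without either HFHF-old rat) and 0 to 6 (6 without either young rat). Member tests per contrast numbered 47 in the main and DESeq2 fits, 60 with no filter and 48 with the top 1% kept. Over all classes, 114109 genes were tested in the main and DESeq2 fits. Without a filter, 16245 (ductal) to 21252 (fibroblast) genes were tested per class, against 8494 (acinar) to 14106 (islet) in the main fits. The cause of the larger counts with DESeq2 and without a filter was not tested.

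The numbers of the rats pair nothing known. Correlations of same-numbered rats ran from -0.201 to 0.190, with 2 pairs per contrast. With the number as a replicate block, 452 and 68 genes and 0 members were called, and the macrophage median for aged minus young turned to 0.13.

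Members' median log2 differences for aged minus young, with at least 1 member called, were -3.26 in fibroblasts, -0.53 in macrophages, -1.69 in dendritic, -0.79 in NK and -2.30 in B cells without a filter (which also called 3 members in endothelial cells, and 1 in ductal cells for HFHF-old minus old), -1.69 in dendritic and -2.34 in B cells with DESeq2, and -2.38 in B cells with the top 1% kept. With 1 rat left out they ran from -2.29 to 0.72 in islet cells and from -2.66 to 1.21 in macrophages, both above 0 without young 2, from -4.54 to -1.20 in fibroblasts and from -5.09 to -1.57 in B cells. For HFHF-old minus old they were 2.46 in fibroblasts, 4.25 in macrophages, -1.21 in dendritic and -0.17 in NK cells without a filter, and 4.17 in macrophages with DESeq2. With no member called, medians turned sign, to -0.66 in islet cells without doublets and to 0.23 in T cells with the top 1% kept. With 1 rat left out they ran from -0.60 to 2.29 (islet), -0.046 to 3.17 (fibroblast), 3.93 to 4.43 (macrophage), -0.59 to 0.52 (T) and -0.63 to 0.14 (NK). In the fits without a filter, 3 of 6 members and 338 of 17774 genes were called in endothelial cells for aged minus young. In ductal cells, 1 of 6 members and 121 of 16245 genes were called for HFHF-old minus old.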

Other observations

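Among the cells of no named class, Ube2c was unusually often detected in young 2. In cluster 9, with 2478 of its 2485 cells from young 2 and both acinar and islet genes and the haemoglobin gene Hbb raised, 445 cells (18.0%) had a Ube2c UMI, while 328 had Mki67, 245 Top2a and 72 were cycling. In cluster 18, nearly all from HFHF-old 1, the order was the other way, with 104 cells with Ube2c and 237 with Mki67 of 1462. Over all cells, 7.14% of young 2 cells had a Ube2c UMI, and 42.9% of these had no other member, against 5.79% to 28.1% in the other rats.

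Cells with any of the 6 genes were 23.2% of young 2 and 23.6% of HFHF-old 1, against 4.03% to 11.6% of the other 4 rats. The cycling shares of those 2 rats over all cells were 3.07% and 4.45%.

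Cells of cluster 6, led by genes including Il2ra, Il1rl1, Icos, Il7r and Gata3, were left unnamed since these are not genes of the T list alone. Their cycling shares were 3.23% (31 of 960) and 7.35% (30 of 408) in young, 2.24% (7 of 313) and 2.23% (16 of 716) in old rats and 1.25% (12 of 959) in HFHF-old 2, so the 3 aged rats with enough cells were below both young rats. Cluster 23, with cells of all 6 rats, came nearest to the dendritic list but had too few of its markers raised for a name. Its shares were 3.62% (11 of 304) and 11.1% (9 of 81) in young, 5.77% (9 of 156) and 2.77% (11 of 397) in old and 6.71% (10 of 149) and 8.70% (4 of 46) in HFHF-old rats, so 3 aged rats lay above young 1 and the groups overlapped. These values were looked up after the clusters were seen and carry no test.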
